A study of Homo sapiens with 12 samples.

Results

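AP-1 (activator protein 1) and immediate early transcription factors were followed in IMR90 cells, a line of primary fibroblasts from normal human fetal lung. The cells were compared between proliferation (Pro) and replicative senescence (Sen). The set was chosen by symbol and holds 10 genes, FOS, FOSB, FOSL1, FOSL2, JUN, JUNB, JUND, ATF3, MAFF and EGR1, out of 38716 symbols in the gene tables, of which 16451 had a coding read in some library. Senescent cells had been passaged until they stopped dividing, and proliferating cells of the same line were the reference. No other treatment was given in the labels, and both states were grown in medium with serum, which is itself a stimulus for these genes. Each state had 3 lysates, numbered 1 to 3 as in the sample titles, and each lysate gave 1 Ribo-seq library (ribosome-protected fragments, RPF) and 1 RNA-seq library of poly(A)-enriched RNA, 12 libraries in all. The culture notes name 2 isolates of the line and do not tie them to samples, so isolate and state cannot be told apart. A tag on the Pro RNA-seq data resembles the solvent name DMSO and is not mentioned in the labels.

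AP-1 is a pair of basic leucine zipper proteins bound to DNA, typically 1 of the JUN family with 1 of the FOS family, and its usual site reads TGANTCA. FOS, FOSB, JUN, JUNB, ATF3 and EGR1 are immediate early genes: growth factors, serum and stress switch them on within minutes through MAP kinases, without new protein synthesis, and their short-lived mRNAs then decay. AP-1 is known in fibroblasts for driving proliferation and matrix remodelling, and in senescent cells for acting at enhancers of secreted factors.

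Promoter stretches that hold ATF/CREB-type elements or CArG boxes before the start are shown first, so that they can be set beside the levels below, whether the gene changed with state (JUN, ATF3, MAFF, EGR1) or did not pass the test (JUND). RefSeq windows of 250 bases before and 50 after the annotated start were searched on both strands. They covered 11 windows of 9 genes; FOSL1 was not among them. Windows were placed on GRCh37 by exact match. Capitals mark the motif, and the position is that of its first base relative to the start. JUN and ATF3 held TGACATCA and MAFF and JUND held TGACGTCA, the element bound by ATF and CREB proteins and by JUN paired with them. EGR1 held a pair of CArG boxes, CC, 6 bases of A or T, then GG, where serum response factor binds.
JUN, chr1:59249769-59249796, minus strand, position -67: ggccttggggTGACATCAtgggctattt
ATF3, chr1:212738616-212738643, plus strand, position -123: acctatgataTGACATCAtatggccact
MAFF, chr22:38597937-38597964, plus strand, position -54: gccgggtcggTGACGTCAccgcatgact
JUND, chr19:18392615-18392642, minus strand, position -200: gccgcccccaTGACGTCAacccacaagg
EGR1, chr5:137801054-137801081, plus strand, position -105: ccggtcctgCCATATTAGGgcttcctgc
EGR1, chr5:137801076-137801103, plus strand, position -83: tcctgcttcCCATATATGGccatgtacg
TGACATCA was found in 2.61% and TGACGTCA in 1.85% of the 35116 promoter windows searched, and 4.44% held either. CArG boxes were in 1.29%. The ATF3 window lies before the more distant of its annotated starts. TGANTCA itself was found in FOSL2 alone among the searched windows of the set, inside the transcribed part, against 7.71% of all windows. FOS, FOSB, JUNB and ATF3 held TATAAA, present in 11.5% of windows. These matches describe letters and were not tested for binding.

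Between 7902427 and 14144455 RNA-seq reads per library fell on mRNA. The Ribo-seq libraries differed in depth, with 583798 to 1718521 coding (CDS) reads in 4 of them and only 54421 in Pro 1 and 54708 in Sen 2. There, 3 reads, taken as the limit of what is resolved, amounted to 55.1 and 54.8 CPM (counts scaled to a common library size), against at most 5.14 CPM in the other Ribo-seq libraries. In the RNA-seq libraries 3 reads came to at most 0.38 CPM. The cells expressed fibroblast genes in both states. The summed mRNA of 10 fibroblast markers was 34015 to 38328 CPM in Pro and 31503 to 36641 CPM in Sen. Leukocyte markers summed to 19.1 to 21.2 CPM in Pro and 32.0 to 35.2 CPM in Sen, nearly all of it CD68, a lysosomal protein that fibroblasts also make, with CD3E at 0. Endothelial and epithelial markers stayed at or under 1.71 CPM in every RNA-seq library, with CDH5 at 0. Their part in the results below was not tested.

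The factors did not move as a group. Of the 9 factors with enough mRNA to test, ATF3, MAFF, JUN and JUNB rose in senescent cells, EGR1 and FOSL2 fell, and FOS, FOSL1 and JUND did not pass the test. That is 6 of 9, where 73.6% of all 12787 tested genes passed (36.6% higher, 37.0% lower), so the share of changed factors was near the background. Changed genes were called with edgeR's quasi-likelihood test with Benjamini-Hochberg adjustment over all genes, at an adjusted p under 0.15. The median log2 change was 0.29 over the 9 factors and -0.01 over all tested genes. Without the RNA-seq library Sen 3, the counts became 3 higher and 5 lower and the median -0.15. In that fit 9352 of 12914 genes passed, 48.7% of them higher. Library totals without TMM composition factors moved the median of all genes to -0.11, and 40.4% of changed genes were then higher in Sen instead of 49.8%. In bulk RNA, fewer cells that express a gene and less RNA per cell cannot be told apart.

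**Figure D1:**
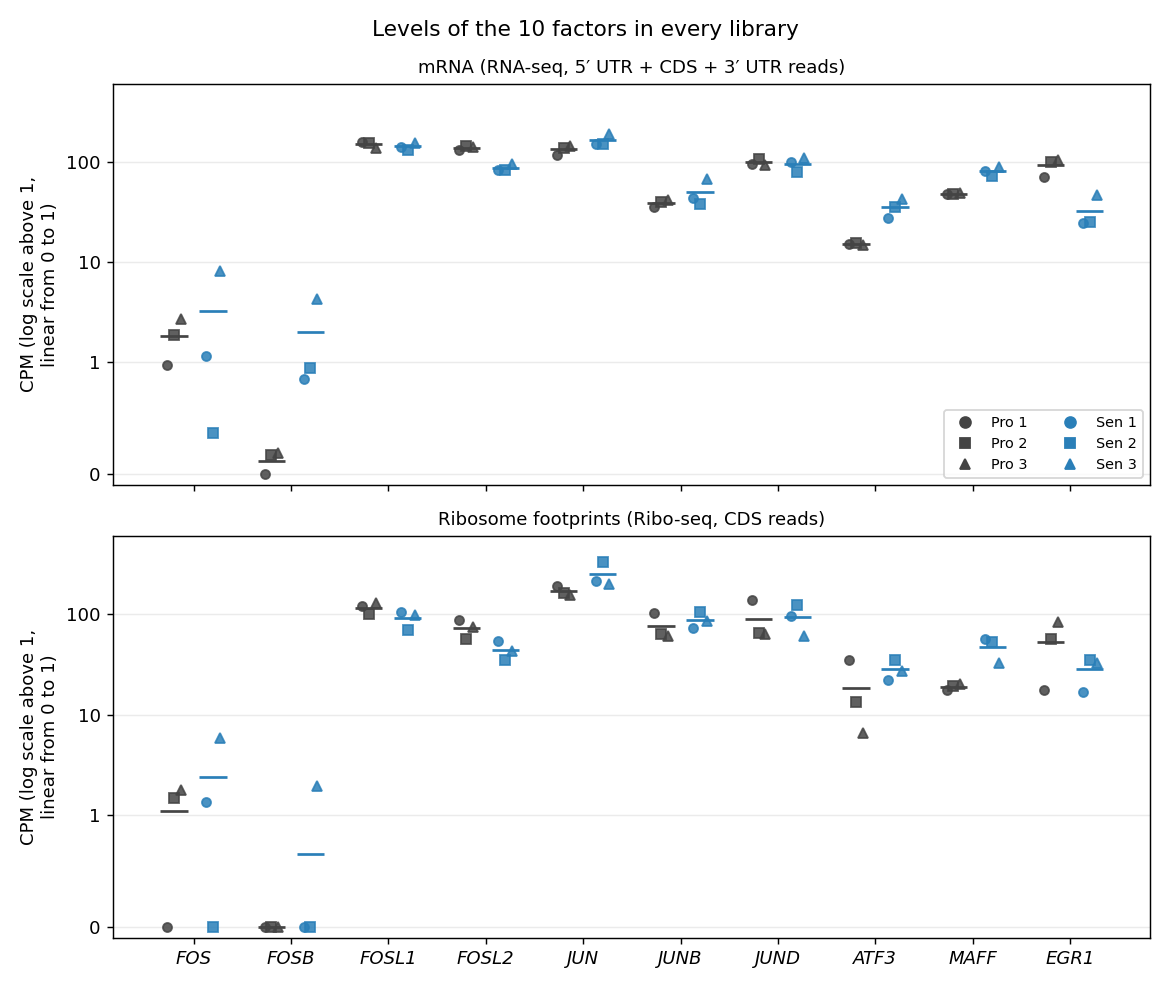
Levels of the 10 factors in every library, as CPM (logarithmic above 1, linear from 0 to 1). The upper panel shows mRNA and the lower panel footprints in the CDS. Grey marks Pro, blue marks Sen, symbols give the replicate and short lines the mean of 3. EGR1 and FOSL2 mRNA are lower and ATF3 and MAFF mRNA higher in all 3 Sen libraries than in any Pro library, and the triangle of Sen 3 lies highest among the Sen values of every gene in the upper panel.

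JUN family proteins pair with each other, with FOS proteins and with ATF proteins. JUN, the strongest activator among them, drives cell cycle entry. Its gene (GRCh37 chr1:59242517-59249720, minus strand) is a single exon in its canonical transcript. JUN mRNA stood at 118, 137 and 145 CPM in Pro 1, 2 and 3 and at 151, 150 and 189 CPM in Sen 1, 2 and 3. Every Sen library was above every Pro library, by a narrow margin. The log2 change was 0.29 ± 0.09 (SE, n = 3 per state; edgeR adjusted p = 0.00747), and 0.16 without Sen 3 (adjusted p = 0.084). Footprints followed: 191, 163 and 154 CPM in Pro and 216, 334 and 202 CPM in Sen, a log2 change of 0.46 ± 0.17 (edgeR adjusted p = 0.0245). These groups did not overlap either, as for 32.5% of all genes tested by RPF. The call was lost without Pro 3 (0.41, adjusted p = 0.257).

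JUNB, which counters JUN in proliferation, lies on chr19:12902300-12904129 as a single exon. JUNB mRNA was 35.3, 40.0 and 41.3 CPM in Pro and 43.2, 38.0 and 67.8 CPM in Sen. The groups overlapped, and the call (log2 change 0.34 ± 0.14, edgeR adjusted p = 0.0382) rested on Sen 3, without which the change was 0.04 (adjusted p = 0.727). Exons of HOOK2 on the opposite strand overlap JUNB, and whether reads were assigned by strand is not given in the sources used here. HOOK2 mRNA stood at 8.36 ± 1.64 CPM in Pro and 9.82 ± 1.49 CPM in Sen (SD, n = 3). JUNB footprints ranged from 60.2 to 104 CPM in Pro and from 73.7 to 105 CPM in Sen (log2 change 0.32 ± 0.21, edgeR adjusted p = 0.225).

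JUND (chr19:18390504-18392432, minus strand), the member of the family that resting cells keep, did not pass in either layer. JUND mRNA stood at 94.5, 107 and 93.7 CPM in Pro and 99.4, 79.3 and 108 CPM in Sen (log2 change -0.05, 95% interval, as 1.96 SE to each side, -0.23 to 0.14). Its footprints were 139, 65.3 and 63.8 CPM in Pro and 96.5, 123 and 60.3 CPM in Sen. The high values came from the shallow libraries Pro 1 and Sen 2, with 8 and 7 reads. The footprint log2 change was 0.36 ± 0.21 (edgeR adjusted p = 0.165). It passed as higher in 4 of 14 alternative settings, kept its outcome in 9 and turned in sign in 1. Without both shallow lysates it was 0.40 (edgeR adjusted p = 0.122), and without Sen 3 it was 0.56 (edgeR adjusted p = 0.0563). Per kilobase of transcript, JUND made up 45.1% ± 2.70 of the JUN family mRNA in Pro and 39.2% ± 2.84 in Sen (SD, n = 3), while JUN went from 36.1% ± 2.06 to 39.7% ± 2.50, and both ranges overlapped between states. Among footprints per kilobase of CDS, JUN led the family, with 52.9% ± 6.73 in Pro and 59.0% ± 1.70 in Sen. JUND was thus first in Pro mRNA, JUN and JUND had near equal shares of Sen mRNA, and JUN was first in footprints in both states.

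FOS proteins bind DNA only with a partner. The FOS family of these fibroblasts was almost entirely FOSL1 and FOSL2, also called FRA1 and FRA2, which lack the strong activation domains of FOS and FOSB and are the forms that persist in cycling cells. FOSL1 (chr11:65659520-65668044, minus strand) had 158, 155 and 138 CPM of mRNA in Pro and 141, 132 and 155 CPM in Sen. These ranges overlapped, and the log2 change was -0.07 (95% interval -0.23 to 0.08; edgeR adjusted p = 0.429). Its footprints ran from 101 to 128 CPM in Pro and from 70.3 to 106 CPM in Sen (log2 change -0.21, 95% interval -0.58 to 0.15). Both intervals leave out a change of 1 on the log2 scale in either direction.

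FOSL2 (chr2:28615315-28640184, plus strand), which is induced later than FOS, fell. FOSL2 mRNA was 132, 142 and 139 CPM in Pro and 83.1, 83.1 and 94.1 CPM in Sen. All Sen values lay well under the Pro values, at a log2 change of -0.67 ± 0.07 (edgeR adjusted p = 6.81e-08). Footprints of FOSL2 also separated the states, as for 32.5% of all genes tested by RPF. They were 86.8, 56.4 and 73.9 CPM in Pro, from 5, 38 and 124 reads. In Sen they were 53.6, 35.2 and 42.8 CPM, from 80, 2 and 22 reads. The footprint log2 change was called at -0.46 ± 0.23 (edgeR adjusted p = 0.101). That call was lost without Pro 3 (-0.26, adjusted p = 0.622). It was also lost without Sen 1 (-0.68) or Sen 3 (-0.37). FOSL2 accordingly took a smaller part of the FOS family per kilobase of mRNA, 18.8% ± 1.34 in Pro and 13.1% ± 0.55 in Sen (SD, n = 3), and FOSL1 a larger part, 80.4% ± 1.79 and 84.9% ± 1.95. Among footprints, FOSL1 held 65.8% ± 2.72 in Pro and 70.2% ± 0.36 in Sen.

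FOS (chr14:75745529-75748933, plus strand) and FOSB (chr19:45971253-45978437, plus strand), the members most sensitive to serum, had low mRNA, at most 8.23 CPM. FOSB was under 3 reads in each Pro library. FOS mRNA was 0.98, 1.88 and 2.70 CPM in Pro 1, 2 and 3, from 8, 22 and 29 reads. In Sen it was 1.17, 0.37 and 8.23 CPM, from 11, 5 and 90 reads. The highest and the lowest value of the gene were thus both in senescent cells. The fitted log2 change was 0.71 ± 0.61 (edgeR adjusted p = 0.318). Without Sen 3 the direction turned and the test was passed (-1.46, adjusted p = 0.00396), and without Sen 2 it was passed in the other direction (1.35, adjusted p = 0.0224). FOSB mRNA counted 0, 2 and 2 reads in Pro and 8, 13 and 47 reads in Sen, or 0 to 0.19 CPM against 0.85 to 4.30 CPM. All Sen libraries were above all Pro libraries. Among tested genes, 67.8% had states that did not overlap, counting both directions. FOSB did not pass the filter on low counts. The exact permutation test gave p = 0.1, the smallest that 3 against 3 can reach. FOS footprints came to 9 and FOSB footprints to 1 over all libraries, so their translation was not resolved at this depth.

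ATF3 and MAFF, which are induced by stress, had the largest rises of the tested factors. ATF3 (chr1:212738676-212794119, plus strand) is a basic leucine zipper protein that pairs with JUN proteins and represses as a dimer with itself. ATF3 mRNA was 15.0, 15.6 and 14.9 CPM in Pro and 27.3, 35.8 and 42.9 CPM in Sen. The Pro libraries were nearly identical and the Sen libraries all above them. The log2 change was 1.23 ± 0.13 (edgeR adjusted p = 2.38e-08), a 2.34-fold rise that stood at a log2 change of 1.06 without Sen 3. ATF3 footprints were few, 2, 9 and 11 reads in Pro and 33, 2 and 14 in Sen. In CPM they were 34.7, 13.4 and 6.56 in Pro and 22.1, 35.2 and 27.2 in Sen. The groups overlapped only through Pro 1, whose value rests on 2 reads, and the log2 change was 1.35 ± 0.41 (edgeR adjusted p = 0.00521). Without Pro 3 the change was 0.66 (adjusted p = 0.391).

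MAFF (chr22:38596774-38612514, plus strand) is a small MAF protein, a leucine zipper factor with no activation domain of its own that pairs with NRF2 and BACH1 as well as with itself. MAFF mRNA was 48.0, 47.2 and 49.2 CPM in Pro and 81.6, 72.6 and 89.4 CPM in Sen, a clear separation (log2 change 0.75 ± 0.08, edgeR adjusted p = 5.66e-08). Its footprints were 17.4, 19.3 and 20.3 CPM in Pro, from 1, 13 and 34 reads, and 56.9, 52.7 and 33.0 CPM in Sen, from 85, 3 and 17 reads. Again no Sen value fell within the Pro range (log2 change 1.30 ± 0.30, edgeR adjusted p = 0.000305). Of all genes tested by RPF, 32.5% had states that did not overlap. Without Sen 1 the footprint change was 0.85 (adjusted p = 0.208). PLA2G6, whose exons overlap MAFF on the opposite strand, was at 2.62 ± 0.92 CPM in Pro and 1.8 ± 0.62 CPM in Sen (SD, n = 3), far under MAFF.

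EGR1 (chr5:137801168-137804992, plus strand), a zinc finger factor induced through serum response factor, fell furthest of the set. EGR1 mRNA was 71.0, 99.3 and 105 CPM in Pro and 24.4, 25.1 and 47.1 CPM in Sen. All Sen values lay under the lowest Pro value. The log2 change was -1.52 ± 0.17 (edgeR adjusted p = 6.08e-08), a 2.87-fold fall. Footprints of EGR1 counted 1, 38 and 140 reads in Pro and 25, 2 and 17 reads in Sen, or 17.4, 56.4 and 83.5 CPM against 16.7, 35.2 and 33.0 CPM. The groups overlapped through Pro 1, which held 1 read, and the log2 change was -1.70 ± 0.29 (edgeR adjusted p = 1.26e-06). Without Sen 1 it was -1.08 (adjusted p = 0.0306), so that this footprint call was kept without each of the 6 libraries in turn.

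**Figure D2:**
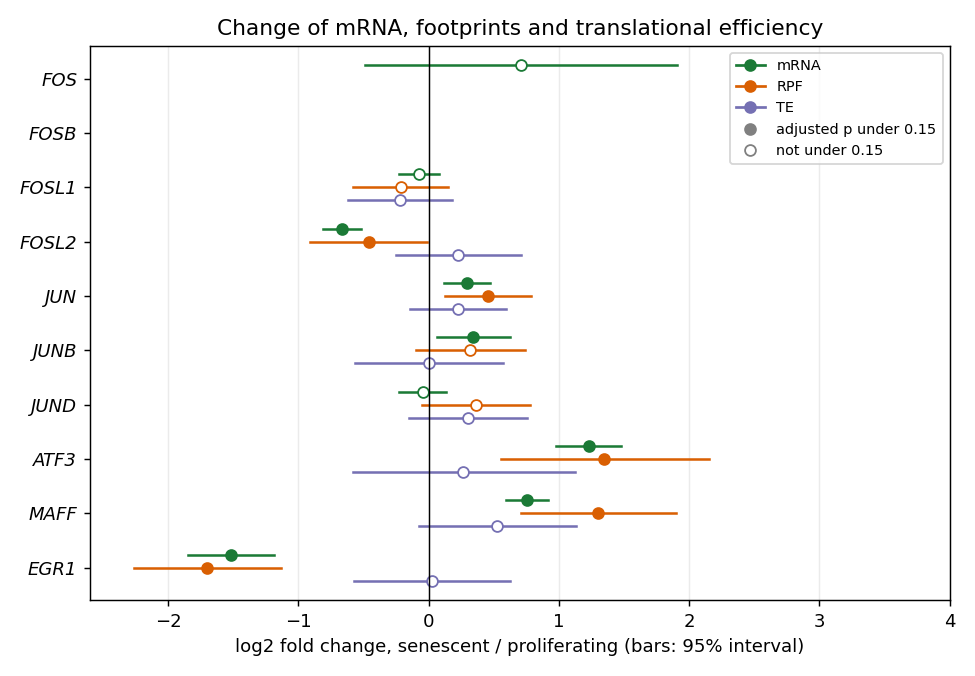
log2 fold change of Sen over Pro for mRNA, footprints (RPF) and translational efficiency (TE), with bars of the 95% interval (1.96 SE to each side). Filled points passed an adjusted p of 0.15 and open points did not; genes without a point in a layer were not tested there. mRNA and footprint changes of ATF3, MAFF, JUN, FOSL2 and EGR1 point the same way, from -1.52 and -1.70 for EGR1 to 1.23 and 1.35 for ATF3, and every TE interval crosses 0.

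In the footprint layer, 5 of 8 tested factors passed, ATF3, MAFF and JUN higher and EGR1 and FOSL2 lower, against 54.4% of all 7521 genes tested (27.5% higher, 26.9% lower). In each of the 5, mRNA moved in that direction too and passed. Without the shallow lysates Pro 1 and Sen 2 the counts were 4 higher and 2 lower of 8, where 4949 of 9213 genes passed. DESeq2, run on the same counts, called none of the 8, against 15.5% of all genes. Its unadjusted p was under 0.05 for 2 of the 8, against 20.3% of all genes. The log2 changes it gave were 1.24 for MAFF, 1.10 for ATF3 and -1.29 for EGR1. Whether the footprint change exceeded the mRNA change was tested as translational efficiency (TE), the interaction of library type with state over all 12 libraries. None of 8 factors passed in edgeR, where 9.37% of 7473 genes did, or in DESeq2, where 0.375% did. None had an unadjusted p under 0.05 in edgeR, against 18.6% of all genes. The largest difference was that of MAFF, 0.53 ± 0.31 on the log2 scale (edgeR adjusted p = 0.358). The 95% intervals were wide, from -0.07 to 1.13 for MAFF, -0.58 to 1.12 for ATF3, -0.57 to 0.62 for EGR1 and -0.14 to 0.60 for JUN, so a moderate change in efficiency was not detectable at this depth.

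Fewer of the JUN footprints lay in the 5′ untranslated region (5′ UTR) in senescent cells. JUN mRNA carries a long 5′ UTR. Whether the reads assigned there come from ribosomes on the way to the main reading frame was not tested. The share of JUN footprints in the 5′ UTR, of those in 5′ UTR and CDS together, was 35.3% in Pro 1 (6 of 17), 13.4% in Pro 2 (17 of 127) and 13.7% in Pro 3 (41 of 300). In Sen 1, 2 and 3 it was 5.00% (17 of 340), 0% (0 of 19) and 1.89% (2 of 106). Each Pro library thus had a larger share than any Sen library. Pooled over libraries it was 14.4% in Pro (64 of 444, 95% Wilson interval 11.5 to 18.0) and 4.08% in Sen (19 of 466, 2.63 to 6.28), intervals that cover counting error only. The difference of the means was -18.5 percentage points (exact permutation test, two-sided, p = 0.1, the smallest possible). It was -11.2 points without Pro 1, the library with 17 such footprints, and -10.1 points without both shallow lysates. The 5′ UTR share of JUN mRNA reads was 41.5% ± 2.44 in Pro and 44.8% ± 1.43 in Sen (SD, n = 3), with overlapping ranges (exact permutation test, two-sided, p = 0.2).

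Lower 5′ UTR shares in Sen were common among single genes, and JUN lay near the far end by the difference of mean shares. Among 848 genes with at least 10 such footprints in each library, 14.5% had a lower share in every Sen library than in any Pro library and 0.59% a higher one. Of these, 345 genes had 20 or more 5′ UTR footprints over all libraries, a limit chosen after the values were seen. Among them 25.8% separated in this direction and 1.16% in the other. The median difference was -1.31 points, 296 of 345 genes had a lower mean share in Sen, and 2 genes had a larger fall than JUN. That rank used the -18.5 points with Pro 1 included and was not recomputed without it. A fall in points cannot exceed the share in Pro, so genes with a high Pro share can fall further. Summed over all genes the share went the other way, at 11.6%, 3.77% and 2.82% for the Pro libraries in order and 5.06%, 52.4% and 14.5% for the Sen libraries. The part of these library differences in the JUN result was not tested. The other factors had too few 5′ UTR footprints for a test. FOSL2 had 14 of 180 in Pro and 3 of 106 in Sen, MAFF 4 of 52 and 0 of 106, ATF3 4 of 26 and 1 of 50, and EGR1 5 of 184 and 0 of 44. With 5′ UTR footprints added to those in the CDS, the JUN change was 0.29 (edgeR adjusted p = 0.19), and the threshold that it met on CDS footprints alone was missed. At the other end of the transcript, the 3′ UTR share of mRNA reads overlapped between the states for all 8 factors that could be compared, where 12.7% of 11952 genes separated.

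**Figure D3:**
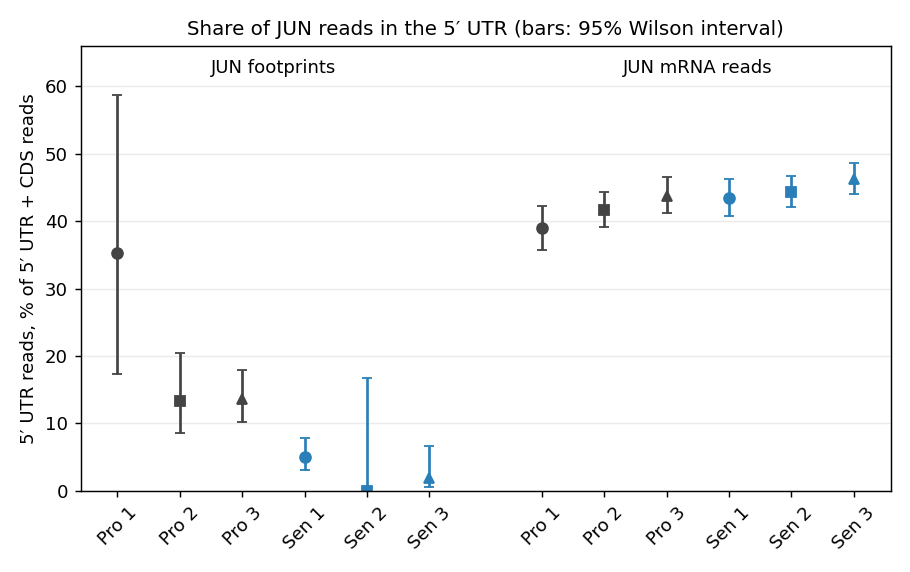
Share of JUN reads that lie in the 5′ UTR, in percent of 5′ UTR and CDS reads, for footprints (left) and mRNA (right) in each of the 6 libraries of a kind, with 95% Wilson intervals. The footprint share is 13.4% or more in the Pro libraries and 5.00% or less in the Sen libraries, while the mRNA shares of both states lie between 39.0% and 46.3%.

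The factors shared a pattern within senescent cells that has no counterpart in the labels. Of the 9 factors tested for mRNA, all were highest in Sen 3 among the Sen libraries, against 35.0% of all tested genes, and 4 exceeded the next Sen library by at least 1.25-fold (44.4%), against 3.17% of all tested genes. This count was made after the values were seen. Relative to the mean of Sen 1 and Sen 2, Sen 3 held 10.7 times the FOS mRNA, 4.76 times the FOSB mRNA, 1.90 times the EGR1 mRNA and 1.67 times the JUNB mRNA. Ratios for FOSL1, FOSL2 and MAFF, by contrast, were between 1.13 and 1.16. Of 29 other immediate early genes tested, 21 were highest in Sen 3, and 7 of them by at least 1.25-fold (24.1%). Those included EGR3 at 5.60 times and NR4A2 at 5.17 times the mean of the other Sen libraries. In Sen 1, 2 and 3, EGR3 stood at 0.21, 0.15 and 1.01 CPM and NR4A2 at 1.60, 0.81 and 6.22 CPM. The EGR3 values of Sen 1 and Sen 2 lay under 3 reads (0.30 and 0.21 CPM there), so its ratio is coarse. In proliferating cells the corresponding ratio of Pro 3 was 1.89 for FOS, 1.23 for EGR1, 1.14 for JUN and 1.10 for JUNB. It was 1.01 for FOSL2, 1.03 for MAFF, 0.88 for FOSL1, 0.932 for JUND and 0.975 for ATF3. The FOSB ratio was 2.18, from 0, 2 and 2 reads in Pro 1, 2 and 3. Among footprints, Sen 3 was the highest Sen library for 0 of 8 tested factors, against 33.7% of all tested genes, but for 5 of 8 the highest value was that of the shallow Sen 2. Against Sen 1, the deepest Sen library, Sen 3 was higher for 3 of 8 (JUNB, ATF3 and EGR1), where 50% of all tested genes were. EGR1 footprints were 33.0 CPM in Sen 3 and 16.7 CPM in Sen 1. FOS and FOSB, which could not be tested, were highest in Sen 3 (5.83 and 1.94 CPM) on 3 reads and 1 read. The EGR1 fall in mRNA, which stood against the high Sen 3 value, was -1.91 on the log2 scale without that library.

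**Figure D4:**
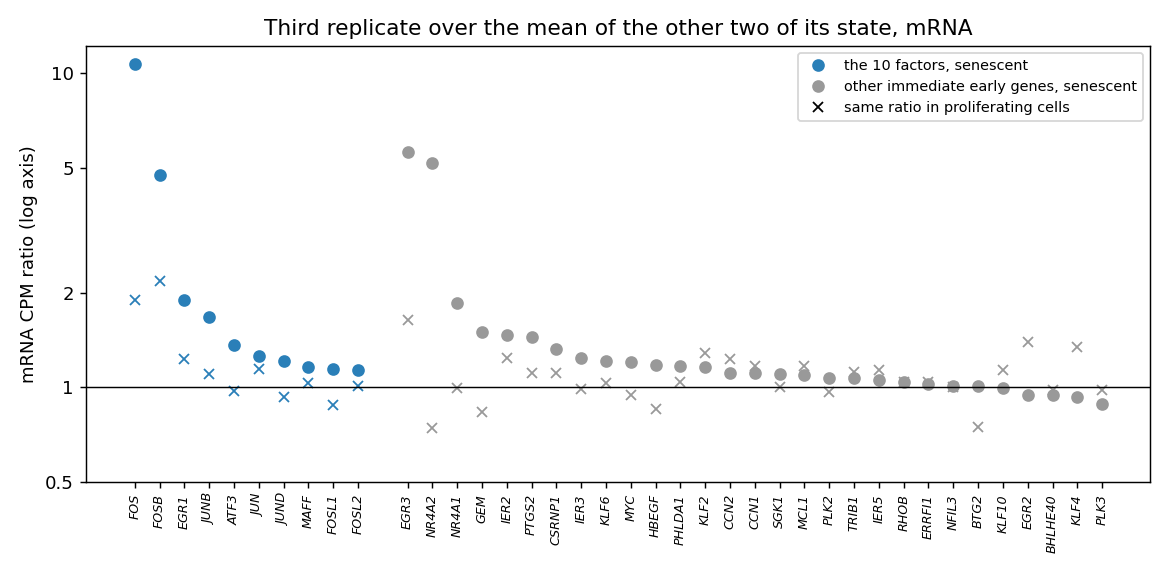
mRNA CPM of the third replicate divided by the mean of the other replicates of its state (log axis), for the 10 factors (blue) and 29 other immediate early genes (grey). Circles show Sen and crosses Pro. The circles of FOS (10.7), EGR3 (5.60), NR4A2 (5.17) and FOSB (4.76) stand far above 1, and those of most other genes lie near it.

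Zipper proteins that pair with or compete against AP-1 moved in both directions. Of 10 tested AP-1 relatives, 3 rose and 6 fell at the mRNA level (median log2 change -0.35), where 36.6% of all tested genes rose and 37.0% fell. MAFK, another small MAF protein, rose from 51.7 ± 3.96 to 156 ± 24.9 CPM (SD, n = 3; log2 change 1.59 ± 0.10, edgeR adjusted p = 4.97e-12), and its footprints rose by a log2 change of 1.52. MAFG rose by 0.40. BACH1, the repressor that pairs with small MAF proteins, fell by 0.22, and JDP2, which represses AP-1 as a partner of JUN, fell by 0.61. CREB5 had the largest fall, 1.33 on the log2 scale. Among footprints, 4 relatives could be tested, of which 1 rose and 2 fell, against 54.4% of all genes called.

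Of 29 other immediate early genes, 14 were higher, 7 lower and 8 not past the test (median log2 change 0.13), which makes 72.4% changed, near the 73.6% of all tested genes. CCN2, a matricellular growth factor, rose from 831 ± 130 to 2331 ± 149 CPM (log2 change 1.49, edgeR adjusted p = 7.57e-12), with a footprint change of 1.59. CCN1, its close relative, was at 619 ± 60.4 and 609 ± 41.0 CPM. MCL1, a survival factor, rose by 0.26 in mRNA, 0.77 in footprints and 0.56 in TE (edgeR adjusted p = 0.0554 for TE), and its TE change was 0.57, 0.39, 0.62 and 0.49 without Pro 2, Pro 3, Sen 1 and Sen 3, none of which passed. ERRFI1, an inhibitor of the EGF receptor, rose by 0.45 in mRNA. EGR3, a paralog of EGR1, fell by 1.97 at low levels, 1.72 ± 0.56 CPM in Pro and 0.46 ± 0.48 CPM in Sen. NR4A2, an orphan nuclear receptor, had the highest change of the list, 1.94, and lost its call without Sen 3 (0.64, adjusted p = 0.19). In footprints, 10 of 20 genes rose and 3 fell, against 54.4% of all genes called.

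Most genes that shut off the response were higher in senescent cells. Of 19 tested feedback regulators, 13 rose, against 36.6% of all tested genes, and 5 fell, against 37.0%, in mRNA (median log2 change 0.40), and in footprints 5 of 10 rose and 1 fell, against 27.5% and 26.9% of all genes. DUSP1, a phosphatase that inactivates MAP kinases, rose from 90.2 ± 13.6 to 166 ± 23.1 CPM (log2 change 0.88, edgeR adjusted p = 9.65e-08), and its footprints by 1.19. DUSP5 rose by 0.58 and DUSP14 by 0.33 in mRNA. DUSP4 had the highest change, 2.30, at low levels of 0.95 ± 0.29 and 4.94 ± 0.91 CPM. ZFP36L1, which binds AU-rich elements and promotes mRNA decay, rose by 0.48. NAB2, a corepressor of EGR1 that EGR1 itself induces, fell from 59.0 ± 1.96 to 28.4 ± 1.09 CPM (log2 change -1.05, edgeR adjusted p = 1.74e-10), with a footprint change of -0.82.

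Upstream kinases and nuclear factors changed about as often as genes in general. In mRNA 11 of 28 were higher and 9 lower, or 71.4% against 73.6% of all tested genes (median log2 change 0.05), and in footprints 8 of 21 were higher and 4 lower, or 57.1% against 54.4%. MAPK3 (ERK1) rose by 0.79 in mRNA and 0.65 in footprints. MAP2K3, a kinase of the p38 branch, rose by 0.43 in mRNA, 1.24 in footprints and 0.80 in TE (edgeR adjusted p = 0.022 for TE), whereas MAP2K6 of the same branch fell by 2.64 in mRNA. The TE call of MAP2K3 was lost without Pro 2 (0.72), Pro 3 (0.91) or Sen 1 (0.57). MAP2K2, a kinase of the ERK branch, rose by 0.17, and stood at 0.14, 0.15 and 0.12 without Pro 3, Sen 1 and Sen 3, just short of the threshold (adjusted p = 0.172 to 0.175).

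All 14 tested textbook AP-1 targets passed the mRNA test, 10 higher and 4 lower, against 73.6% of all tested genes (36.6% higher, 37.0% lower; median log2 change 0.60, and 0.62 without Sen 3). CXCL8, a chemokine of the senescent secretome, had the highest change, from 1.21 ± 0.54 to 16.9 ± 9.21 CPM (log2 change 3.87, edgeR adjusted p = 6.23e-09). CCND1, the G1 cyclin, rose from 849 ± 13.2 to 3800.0 ± 333 CPM and CD44, the hyaluronan receptor, from 1668 ± 33.0 to 3416 ± 121 CPM. Footprints of both rose too, by 2.03 and 1.06. PLAU, the urokinase activator of plasmin, rose by 0.25, and TIMP1, an inhibitor of metalloproteinases, fell by 0.22. LIF, a cytokine, fell by 1.70 in mRNA and 1.78 in footprints. Of 10 targets tested in footprints, 6 rose and 1 fell, against 54.4% of all genes called, and of 10 tested for TE, 1 passed, against 9.37%.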

How the data were processed

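Per the labels, 12 libraries of IMR90 fibroblasts fell into 4 groups (Pro and Sen, Ribo-seq and RNA-seq) of 3 replicates grown independently. Reads were processed with cutadapt 1.18, Bowtie 1.0.1 and SAMtools 1.8, per the submitters' processing notes, which also name DESeq2 1.22.2. Genome build, annotation and strand rule are not given in the sources used here. The deposited values are expected counts per gene and region, unscaled, some of them fractions of a read. Counts had been assumed when the tests were planned. Regions were therefore summed and rounded to whole numbers.

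RPF was the CDS count in Ribo-seq and mRNA the sum of 5′ UTR, CDS and 3′ UTR counts in RNA-seq. Symbols with a CDS read in any library entered the fits. Tests were two-sided quasi-likelihood tests in edgeR 4.0.16 (R 4.3.3) after filterByExpr, with TMM factors within each library type and Benjamini-Hochberg adjustment over all genes, at the published false discovery rate of 15%. The TE model held the lysate as a block, because both libraries of a number came from one lysate. DESeq2 1.42.0, other scalings, filters, replicate blocks and left-out replicates were alternatives. CPM uses TMM-scaled library sizes. Scripts were tested on simulated data. Permutation tests were exact (scipy 1.17.1).

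The 10 factors and the gene lists were chosen with earlier results of these data known. From each list, the 4 genes with the highest mean mRNA and the highest and lowest log2 changes past the threshold are named. A pair of genes that this rule picked is not reported here. Gene positions are from GENCODE 44 mapped to GRCh37, and promoter windows from RefSeq. Wilson intervals and the floor of 3 reads take in counting error alone, as PCR copies are not separate molecules. No library was a duplicate of another.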

Additional observations from a re-analysis of the deposited data

Results flagged for a closer look

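Reads that the deposited tables assign to the class "transcript", outside the 5′ UTR, CDS and 3′ UTR, entered no comparison. For ATF3 they numbered 5, 2 and 3 in the Pro and 11, 11 and 20 in the Sen RNA-seq libraries, 0.35 ± 0.23 CPM and 1.27 ± 0.52 CPM (SD, n = 3). The states did not overlap (exact permutation test, two-sided, p = 0.1, the smallest possible). This value was singled out because the signal lies outside the main measurement and above the level in proliferating cells. What these reads are was not tested.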

How the results depend on the processing

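Among the mRNA results, ATF3, MAFF, EGR1, FOSL2 and JUN kept direction and call under all 15 alternatives each. JUNB kept its direction and missed the threshold with library totals, DESeq2 and without Sen 3. Leaving out each replicate in turn gave 2 to 5 lower factors and log2 changes from -1.46 to 1.35 for FOS and from -0.16 to 0.072 for JUND. Over all genes, 8851 to 9373 passed in these fits. Without the lysates of the shallow Ribo-seq libraries, FOSL1 turned to 0.023 and JUND to 0.053, and on CDS reads only JUND stood at 6.17e-05. Footprint counts depended most on the test and filter. DESeq2 called 0 factors higher and 0 lower, at least 10 reads in every library left JUN as the single factor tested, so 1 of 1 was higher and 0 lower, and an adjusted p under 0.05 left 1 lower. Without each replicate in turn, 1 to 4 were higher and 1 to 2 lower. Across all genes, footprint calls numbered 4088, and 610 of the 828 genes with 10 reads in every library (73.7% against 54.4%), 1164 with DESeq2 and 2336 with a replicate block, and TE calls numbered 700, and 440 with at least 1 read, 241 of those 828 genes (29.1% against 9.37%), 28 with DESeq2, 1342 with no lysate block, 1198 without the shallow lysates and 231 at an adjusted p under 0.05. Leaving out each replicate gave 2681 to 4556 footprint and 134 to 1160 TE calls.

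TE changes near 0 turned in sign, all of them without passing the test. JUNB came to -0.027 with RLE factors, -0.032 with library totals, -0.0019 with at least 1 read, -0.072 with DESeq2 and -0.024 with no lysate block. EGR1 came to -0.0017, -0.0053 and -0.23 with RLE factors, library totals and no lysate block, and to -0.043 without the shallow lysates. Leaving out each replicate gave TE changes from -0.41 to 0.058 for FOSL1, -0.091 to 0.44 for FOSL2, -0.15 to 0.21 for JUNB, -0.048 to 0.58 for JUND, -0.38 to 0.53 for ATF3 and -0.12 to 0.40 for EGR1. With the 5′ UTR left out of the denominator, 1 factor of 8, FOSL2, separated the states by the 3′ UTR share of its mRNA reads. The share of all genes that separate was not computed for this denominator, and was 12.7% with the full one. The causes were not tested.

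Replicate numbers were shared by the states, and whether they pair Pro with Sen cultures was not settled. Deviations of same-numbered Pro and Sen libraries from their group means correlated across genes at -0.10 to 0.12 for mRNA and 0.01 to 0.03 for footprints. By the same measure, footprints and mRNA of one lysate correlated at only -0.05 to 0.06. The measure did not pick out libraries known to belong together, so it cannot decide on pairing. With the replicate number as a block, FOS passed in mRNA (0.68), MAFF did not pass in footprints (0.96), the footprint change of JUND was -0.005, and 1111 genes passed for TE.

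Depth limits the footprint results. Pro 1 and Sen 2 held 1 to 19 CDS reads for each of the 8 tested factors, so their CPM values are coarse, and FOS and FOSB had too few footprints for any statement. P-values measure the spread between 3 cultures of one cell line per state.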
